A study of Mus musculus with 2 samples.

Results

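Matrix remodelling genes were followed in single cells of the mouse colon lamina propria. The set held the 10 genes Mmp8, Mmp9, Mmp12, Mmp13, Mmp14, Mmp19, Timp1, Timp2, Thbs1 and Pdpn, chosen by symbol from the 31053 genes of both matrices, and all 10 were found there once. Cells came from chimeric mice in which CD45.2 bone marrow was engrafted into CD45.1 recipients. The donors lacked the IL-10 receptor (KO, the Il10rb-KO strain on C57BL/6 per the study's methods) or lacked both the IL-10 receptor and the ceramide synthase CerS2 (DKO), and the ages of the mice are not given in the sources used here. Loss of IL-10 receptor signalling is therefore common to both groups, non-haematopoietic tissue kept both genes, and no library of an intact donor was analysed here. There was 1 library per genotype, and the number of mice behind each is not given in the sources used here, so genotype and library cannot be told apart. Intervals below are 95% intervals that cover counting error only, and no test was possible.

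Matrix metalloproteinases (MMPs) are zinc enzymes that are made as inactive precursors and cut collagens, elastin, other matrix proteins and cytokines once activated. Most are secreted, whereas MMP14 sits in the membrane. Tissue inhibitors of metalloproteinases (TIMPs) bind and block them, and TIMP2 also takes part in the activation of pro-MMP2 by MMP14. Macrophages and neutrophils that enter an inflamed gut are known sources of several MMPs. Thrombospondin 1 (Thbs1) is a secreted matricellular glycoprotein that binds CD36 and CD47 and can activate latent TGFβ. Podoplanin (Pdpn) is a membrane glycoprotein of lymphatic endothelium and fibroblastic cells that inflammatory macrophages can also carry, and its receptor is CLEC-2, the product of Clec1b.

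The gene models lie on GRCm38 as follows. Mmp13 (chr9:7272514-7283331), Mmp12 (chr9:7344381-7369499) and Mmp8 (chr9:7558456-7568485), all on the plus strand, belong to 1 cluster on chromosome 9, where the 296 kb from the first to the last of them hold 6 protein-coding Mmp genes. The 3′ end of Mmp12 overlaps the minus-strand gene Mmp1b. The other members are spread over the genome, with Mmp9 at chr2:164940780-164955850, Thbs1 at chr2:118111876-118127133, Mmp14 at chr14:54431612-54445364, Mmp19 at chr10:128790910-128800824 and Timp1 at chrX:20870166-20874735, all on the plus strand. Timp2 at chr11:118301069-118355740 and Pdpn at chr4:143267431-143299564 are on the minus strand.

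Promoter windows of 300 bases (250 before the start and 50 after it, RefSeq, GRCm38.p6) matched 7 of the 10 members, with 8 windows because Mmp12 has a pair of them. Both strands were searched for the AP-1 motif TGANTCA, which was present in 7.81% of 32851 windows of that length. They were also searched for ACGTG, a core of hypoxia response elements that can lie inside an E-box, which was present in 19.6%. The windows are shown for the 3 genes with the largest share of their macrophage UMIs in the inflammatory state described below (Mmp13 through 1 cell), with these motifs in capitals. They are Mmp12 (chr9:7347124-7347423, plus strand), Mmp13 (chr9:7272264-7272563, plus strand) and Pdpn (chr4:143299515-143299814, minus strand).
Mmp12: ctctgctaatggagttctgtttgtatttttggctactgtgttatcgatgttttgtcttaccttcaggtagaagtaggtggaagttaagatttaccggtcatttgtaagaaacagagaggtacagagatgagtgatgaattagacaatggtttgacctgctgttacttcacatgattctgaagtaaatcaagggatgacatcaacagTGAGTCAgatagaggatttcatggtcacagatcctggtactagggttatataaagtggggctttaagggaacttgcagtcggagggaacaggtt
Mmp13: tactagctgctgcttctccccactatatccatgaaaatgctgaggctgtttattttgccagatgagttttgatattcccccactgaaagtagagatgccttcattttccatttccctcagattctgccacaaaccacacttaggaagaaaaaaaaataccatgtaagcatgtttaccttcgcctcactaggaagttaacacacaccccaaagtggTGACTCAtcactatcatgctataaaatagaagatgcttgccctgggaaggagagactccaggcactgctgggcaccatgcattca
Pdpn: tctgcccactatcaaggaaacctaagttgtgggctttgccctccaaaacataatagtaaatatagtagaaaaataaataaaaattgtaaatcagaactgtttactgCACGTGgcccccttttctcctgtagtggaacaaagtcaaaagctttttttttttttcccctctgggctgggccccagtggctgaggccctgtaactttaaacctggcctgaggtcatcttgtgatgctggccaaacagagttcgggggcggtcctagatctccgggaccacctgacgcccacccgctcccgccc
The AP-1 motif began 44 bases before the start in the Mmp12 window shown and 35 bases before it in that of Mmp13. In the Pdpn window the hypoxia core was read from both strands, overlapping itself, 144 and 143 bases before the start. No AP-1 motif was found in the other 6 windows, the second Mmp12 window included, and the hypoxia core was also found in those of Mmp14 and Timp1. These matches are letters in a window and not evidence of binding.

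The KO library held 12549471 UMIs (unique molecular identifiers, each standing for 1 captured transcript) in 2584 barcodes and the DKO library 3414944 in 742, and the libraries had 1 cell barcode in common. After filtering, 2443 KO and 730 DKO cells remained, with medians of 4715 and 3722 UMIs. Cers2 had 443 UMIs in KO monocyte/macrophage-like cells and 0 in DKO ones. Although the label reads colon macrophage, the monocyte/macrophage-like class, named from marker genes, made up 62.1% of KO and 43.8% of DKO cells (1518 and 320 cells). Neutrophil-like, cDC2-like, B cell-like and T cell-like clusters and 2 unnamed clusters made up the rest. Levels are given as CPM, the UMIs of a gene for every 1000000 UMIs of the cells in question. A 3′ kit counts 1 end of each transcript, so that this scale does not grow with transcript length.

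The 10 genes had different sources. Mmp12, Mmp13, Mmp14, Mmp19, Thbs1 and Pdpn were monocyte/macrophage genes in the KO library, with 94.9% (Thbs1) to 99.5% (Pdpn) of their UMIs in that class. Timp1 had 91.3% of its UMIs there, of 46 in all. Mmp9, which encodes gelatinase B of neutrophil granules, was a neutrophil gene, with 80.4% of its KO and 82.2% of its DKO UMIs in neutrophil-like cells. Mmp8, neutrophil collagenase, was divided between both classes. Of its 64 KO UMIs, 65.6% lay in monocyte/macrophage-like and 32.8% in neutrophil-like cells, and of its 15 DKO UMIs 13.3% and 86.7%. Its level was higher in neutrophil-like cells, at 70.4 CPM (43.6 to 108) in KO, against 4.82 CPM (3.48 to 6.52) in the far larger monocyte/macrophage-like class. Timp2 was found in several classes, with 71.3% of its KO UMIs in monocyte/macrophage-like cells and levels of 107 CPM (73.3 to 151) in neutrophil-like and 99.0 CPM in T cell-like cells. Part of the Mmp12 signal lay in cDC2-like cells, with 136 CPM (113 to 161) for KO against 253 CPM (213 to 299) for DKO.

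**Figure D1:**
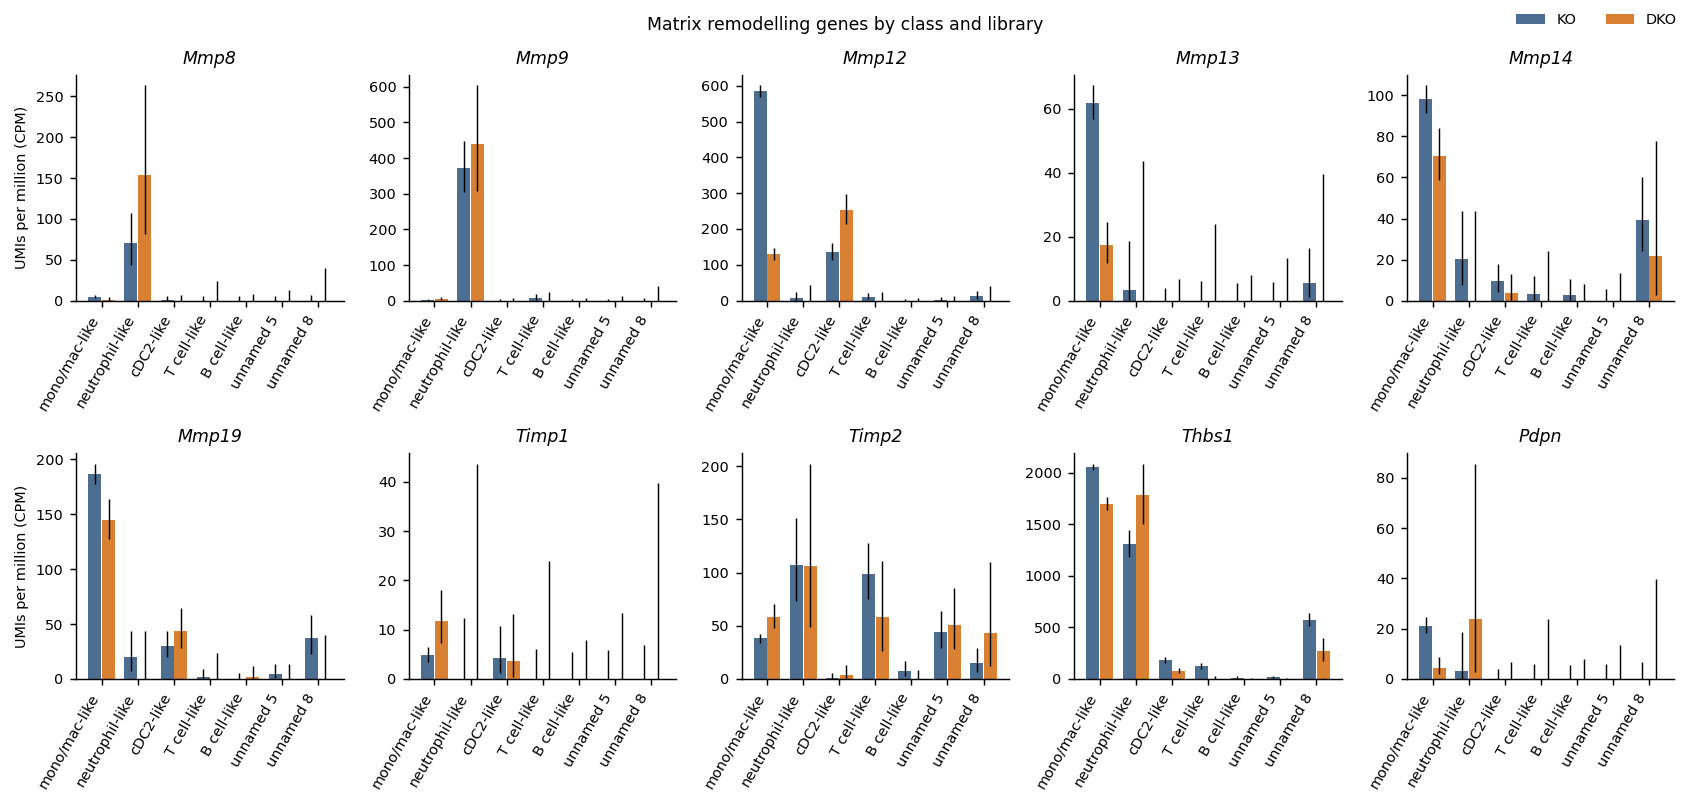
CPM of each gene (linear y axis from 0, scaled per panel) by class of cell, with KO in blue and DKO in orange; bars are levels of 1 library each and lines are exact 95% Poisson intervals. Mmp8 and Mmp9 peak in neutrophil-like cells, and Mmp12 is at 585 CPM for KO against 130 CPM for DKO monocyte/macrophage-like cells.

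Lymphocytes served as the background for free RNA. After each cell was thinned to 2000 UMIs, Mmp12 was detected in 16.7% of 1427 KO monocyte/macrophage-like cells (14.8 to 18.7, 20.7% unthinned) and in 1 of 311 KO B cell-like and T cell-like cells, whose medians before thinning were 5665 and 2983 UMIs. Cells under that depth were left out, 91 KO and 27 DKO monocyte/macrophage-like cells and 65 KO lymphocytes. Thinned Thbs1 was detected in 75.8% and 2.89% of these cells, Mmp19 in 23.3% and 0%, and Mmp14 in 14.8% and 0.322%. These genes stood well above the lymphocytes. For Timp2 the thinned share in KO lymphocytes, 9.32% (6.33 to 13.1), was above the 5.47% (4.34 to 6.78) of the monocyte/macrophage-like cells. Unthinned, Timp2 was found in 40 of 148 T cell-like and 2 of 228 B cell-like cells, so its lymphocyte share was not an even background. For Mmp9 the thinned shares were 0.965% in lymphocytes and 0.420% in monocyte/macrophage-like cells. Mmp8, Mmp13, Mmp19, Timp1 and Pdpn were seen in none of the 311 lymphocytes, where each interval ended at 1.18%. Mmp8 and Timp1 were each seen in 0.911% (0.486 to 1.55) of the thinned KO monocyte/macrophage-like cells, which overlaps that interval. By this measure Mmp8, Mmp9 and Timp1 were thus not shown to be above the background in these cells. The 22 KO UMIs of Mmp9 in the class lay in 7 cells, with 8 in 1 of them. Fibroblast markers were nearly absent from the class, with 8 KO UMIs and 1 DKO UMI over 6 genes and no Pdgfra in either library. Endothelial markers (5 of 5 genes detected in KO, 4 in DKO) summed to 21.8 CPM for KO against 25.8 CPM for DKO, and to 32.5 CPM, from 2 of the 5 genes, in the KO inflammatory state described below. Neutrophil markers (7 of 8 genes in KO, 6 in DKO) summed to 138 CPM for KO against 100 CPM for DKO. Among them S100a8 had 108 KO UMIs and 2 DKO UMIs (12.4 and 1.12 CPM), and S100a9 had 64 and 7 (7.35 and 3.92 CPM). Their part in the levels of Pdpn, Thbs1 and Mmp8 was not tested.

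The monocyte/macrophage-like cells fell into 6 states, clustered without the 10 genes and without the other matrix genes. State 0 (C1q macrophage-like) held 511 KO and 69 DKO cells, and state 1 (classical monocyte-like) held 435 and 91. State 2, led by Ccl7, Gdf15 and Mrc1, was left unnamed and held 312 and 134 cells. State 3 (inflammatory, with Cxcl3, Arg1, Ptges, Slc7a2 and Nos2 among its leading genes) held 185 KO cells and 1 DKO cell, which is 12.2% (10.6 to 13.9) and 0.313% (0.00791 to 1.73) of the class. State 4 (nonclassical monocyte-like) held 39 and 22 cells and state 5, a small C1q macrophage-like state led by Ccl8, held 36 and 3. As state 3 came almost entirely from 1 library, a state and a library effect cannot be told apart there. The class cluster that held most of its cells met 5 of 15 macrophage markers, and the Lyz2 level of state 3 was 789 CPM against 3083 CPM in the whole KO class, so the name rests on few markers. Ranking by the share of markers would have named that cluster plasmacytoid dendritic cell-like (pDC-like). In KO the pDC markers summed to 344 CPM in state 3 and 403 CPM in the whole class, with 4 of 5 genes detected in both.

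Mmp12, the macrophage elastase, was above all a transcript of the KO inflammatory state. Its level there was 3002 CPM (2906 to 3101), followed by 304 CPM (287 to 323) in state 0 and 193 CPM (172 to 216) in state 2, whose intervals do not overlap. Classical monocyte-like cells had 2.36 CPM (0.767 to 5.51), from 5 UMIs. The small state 5 had 33.1 CPM (6.82 to 96.7), from 3 of 36 cells. Mmp12 was thus nearly absent from classical monocyte-like cells and highest in states 3, 0 and 2. The inflammatory state held 72.5% of the 5093 Mmp12 UMIs of the KO class in 12.2% of its cells. Within the state 134 of 185 cells had at least 1 UMI, 87 had 10 or more, and the highest had 164, which was 1.09% of that cell's UMIs. After thinning, 62.8% of 183 cells (55.4 to 69.9) had Mmp12 and the variance was 13.9 times the mean, where counting error alone gives a ratio of 1. Even inside this state, then, Mmp12 was uneven over cells.

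Pdpn was highest in the same state, at a lower level. It had 110 CPM (92.0 to 130) in the KO inflammatory state, 11.8 CPM (8.52 to 16.0) in state 0 and at most 2.36 CPM in the other KO states. The inflammatory state held 73.0% of the 185 UMIs of the KO class, from 45 of its 185 cells. No cell had more than 12 UMIs. Detection of both genes in 1 thinned cell occurred in 22 of 183 inflammatory cells, and Pdpn was seen in 19.1% of the cells with Mmp12 and in 10.3% of those without. Clec1b, the gene of its receptor, had 33.3 CPM in the same state and 13.7 CPM in the whole KO class.

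Mmp13, collagenase 3, was sparse and uneven over cells. In KO it had 193 CPM (170 to 220) in the inflammatory state, 265 CPM (170 to 394) in the small state 5, 78.5 CPM (65.3 to 93.5) in state 2 and 41.9 CPM (35.5 to 49.2) in state 0. The intervals of the first 2 overlap. A single inflammatory cell carried 146 of the 539 UMIs of the KO class, 27.1%, and 29 Arg1 UMIs. Without that cell the inflammatory share dropped from 44.2% to 23.4%, so 1 cell set much of the level of the state. The number of inflammatory cells with Mmp13 was 17 of 185. In state 5, 9 of 36 cells had Mmp13, with at most 9 UMIs.

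Mmp14, the membrane type 1 enzyme, and Mmp19, a secreted enzyme that cuts basement membrane proteins, were shared more evenly by macrophage states. Mmp14 had 147 CPM (126 to 170) in the KO inflammatory state and 141 CPM (129 to 154) in state 0, whose intervals overlap. State 2 followed with 79.1 CPM (65.9 to 94.2) and classical monocyte-like cells with 18.9 CPM (13.5 to 25.7). Mmp19 had 273 CPM (256 to 290) in state 0, 233 CPM (207 to 262) in the inflammatory state, 124 CPM (107 to 142) in state 2 and 80.7 CPM (69.1 to 93.8) in state 1. No KO cell had more than 7 Mmp14 or 15 Mmp19 UMIs. Thinned variance-to-mean ratios in the KO class were 1.35 for Mmp14 and 1.65 for Mmp19, against 15.3 for Mmp12 and 12.4 for Mmp13. Without the inflammatory state, which held the cell with the most Mmp13, they were 5.85 for Mmp12 and 2.73 for Mmp13. The ratio also depends on the level of a gene, and the abundant Thbs1 had 5.17 in the KO class.

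The inhibitors differed from each other. Timp2 was highest in state 2, at 74.1 CPM (61.3 to 88.7) for KO cells against 104 CPM (81.6 to 131) for DKO cells, and low in the KO inflammatory state at 13.8 CPM (8.05 to 22.1). Every inflammatory cell with Timp2 had exactly 1 UMI, in 17 cells. Timp1 was rare, with 42 KO UMIs in 25 cells, of which 16 (38.1%) lay in the inflammatory state, spread over 10 cells. The interval of its KO level there was 7.43 to 21.1 CPM, which lay above state 0 at 2.53 CPM (1.16 to 4.81). It overlapped those of state 1 at 4.25 CPM (1.94 to 8.07) and state 2 at 5.02 CPM (2.17 to 9.90). States 4 and 5 had 0 KO UMIs of Timp1, with wide intervals that also overlapped it. Unlike for Mmp12 and Pdpn, a peak of Timp1 in the inflammatory state was thus not shown. Of the enzymes and inhibitors in that state, Mmp12 was therefore the main transcript, and both Timp genes were under 20 UMIs.

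Thbs1 was the most abundant and the most widespread member. It was highest in classical monocyte-like cells, with 2733 CPM (2663 to 2805) for KO against 2407 CPM (2270 to 2550) for DKO. State 0 had 2083 CPM (2036 to 2131) in KO, the inflammatory state 1944 CPM (1867 to 2024), state 2 1372 CPM (1316 to 1431) and nonclassical monocyte-like cells 758 CPM. Of the KO class, 80.7% of cells had at least 1 UMI and the highest had 72. The inflammatory state held 13.4% of its UMIs in 14.1% of the UMIs of the class, so Thbs1 did not mark that state.

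**Figure D2:**
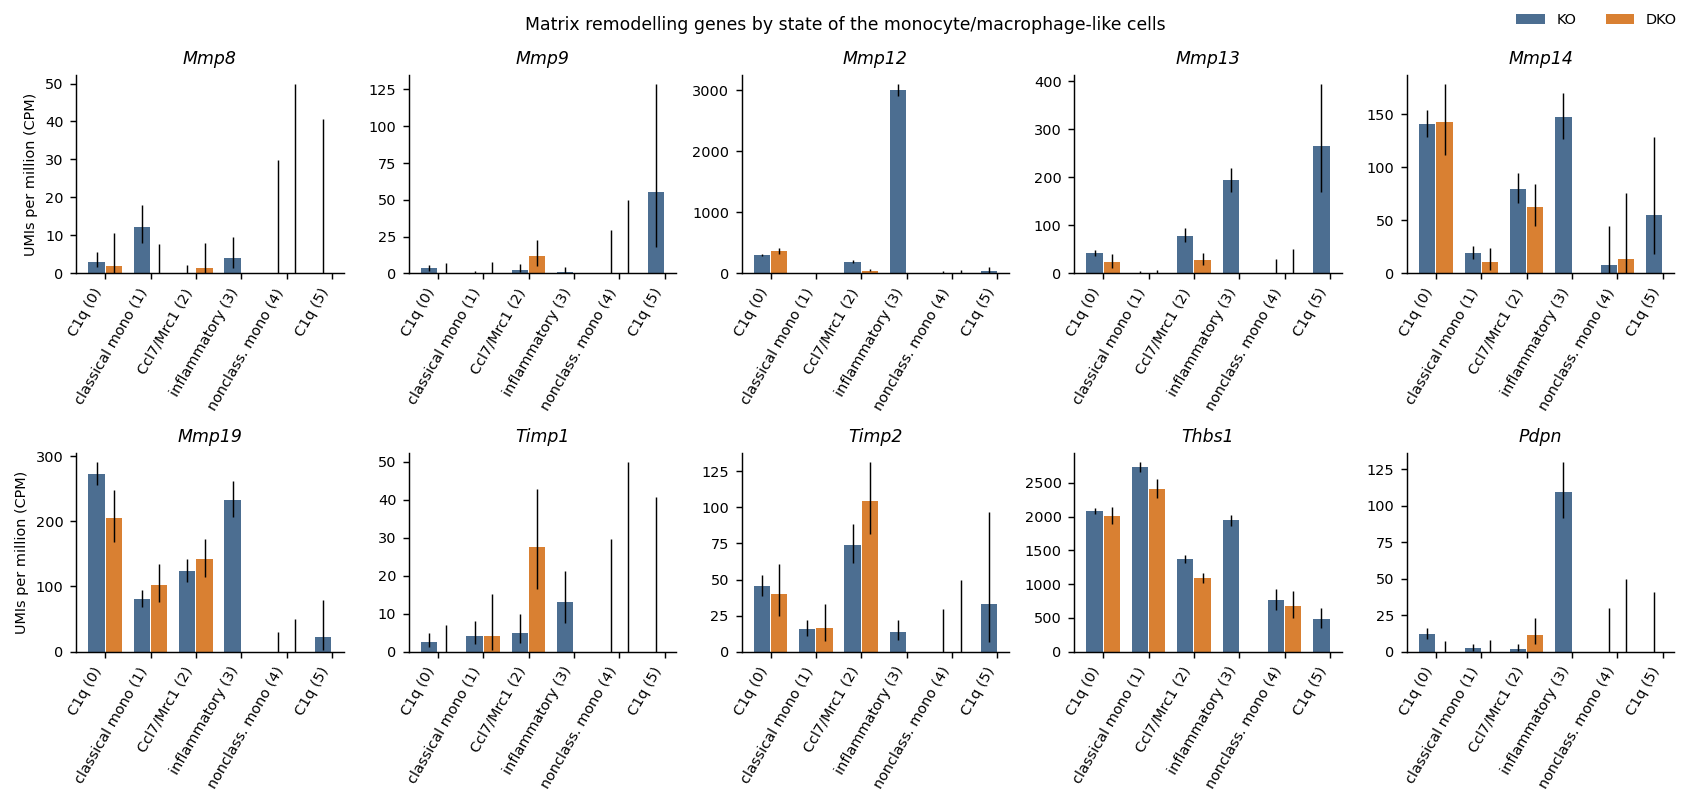
CPM of each gene (linear y axis from 0, scaled per panel) in the 6 states of the monocyte/macrophage-like class, KO in blue and DKO in orange, with exact 95% Poisson intervals; bars of under 20 cells are not drawn, which leaves out DKO in states 3 and 5. Mmp12 and Pdpn peak in the KO inflammatory state, at 3002 and 110 CPM, and Thbs1 in classical monocyte-like cells.

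The genes differed in how they were spread over cells. For each gene, the 76 KO cells with its highest counts, 5% of the class, held 98.4% of Pdpn, 95.4% of Mmp13, 72.7% of Mmp12 and 63.1% of Timp2 UMIs. Such cells held 37.7% of Mmp19, 33.5% of Mmp14 and 19.5% of Thbs1 UMIs. The number of cells that held 50% of the UMIs was 9 for Mmp13, 16 for Pdpn, 36 for Mmp12, 121 for Mmp19, 139 for Mmp14 and 267 for Thbs1. For rare transcripts a large share in few cells also follows from few UMIs, as for Mmp8, Mmp9 and Timp1, whose 22 to 42 UMIs all fell in such cells. This bears on Pdpn (185 UMIs in 79 cells) and Timp2 (333 UMIs in 199 cells) too. Their thinned variance-to-mean ratios were 1.68 and 1.39, against 1.65 for Mmp19. The thinned UMIs behind these ratios were 56 for Pdpn, 93 for Timp2 and 505 for Mmp19. As the ratio depends on the level, it cannot rank the concentration of these 3 genes. Of 183 thinned KO inflammatory cells, 21.9% had none of the 6 Mmp genes, 44.8% had 1 of them and 3 cells had 4 or more, and in the other KO cells of the class 61.1% had none.

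**Figure D3:**
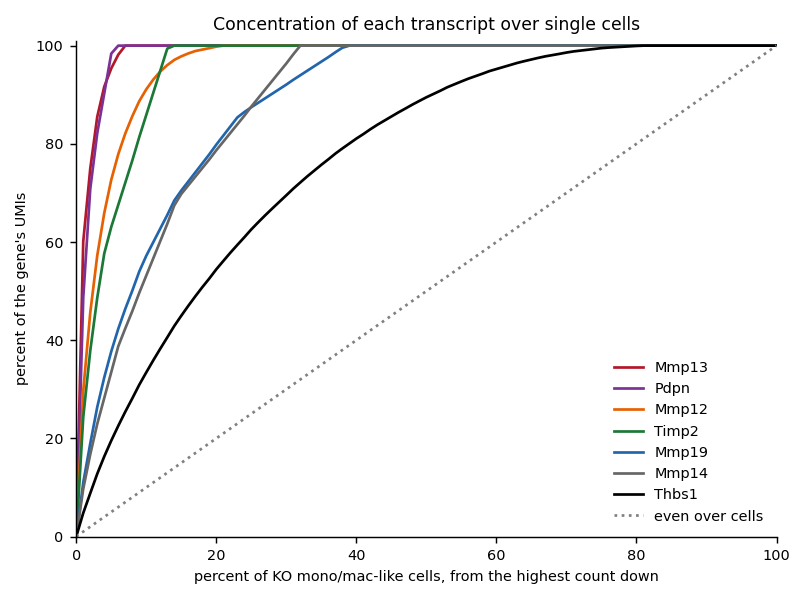
Cumulative percent of the UMIs of 7 genes (y axis) against the percent of the 1518 KO monocyte/macrophage-like cells ranked by that gene's count (x axis); the dotted line marks an even spread. Thbs1 lies nearest to the line, with 19.5% of UMIs in the top 5% of cells, and Mmp13 and Pdpn rise most steeply, Pdpn with only 185 UMIs in 79 cells.

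The question of the comparison was how these genes differed within the class when CerS2 was absent as well as IL-10R. Past the fold means a log2 ratio of DKO over KO of at least 1 in size with at least 20 UMIs over both libraries, and all 10 members passed that minimum in the monocyte/macrophage-like class. Lower in DKO past the fold were 4 members, Mmp8, Mmp12, Mmp13 and Pdpn, and higher was 1, Timp1. Of these, Mmp8 and Timp1 were not shown to be above the lymphocyte background in this class, which also limits their ratios below. The background over 9751 genes was 3.9% lower and 3.98% higher. The median log2 ratio of the members was -0.42, against 0.10 over all genes tested. The members were chosen with earlier results of these data known. Mmp12 was also among the leading genes of the class cluster that held most of state 3. These counts and medians beside the background, here and below, are therefore a description and no evidence of enrichment. TMM scaling shifted every ratio in the class by -0.12. The counts of 4 lower and 1 higher were the same under it.

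Mmp12 had 585 CPM (569 to 601) for KO against 130 CPM (114 to 148) for DKO, giving a log2 ratio of -2.17 (-2.36 to -1.98). Pdpn had 21.2 CPM (18.3 to 24.5) and 4.49 CPM (1.94 to 8.84), giving a log2 ratio of -2.16 (-3.48 to -1.24), from 185 and 8 UMIs. Mmp13 had 61.9 CPM (56.8 to 67.3) and 17.4 CPM (11.8 to 24.7), giving a log2 ratio of -1.81 (-2.40 to -1.31). Of these 3 genes, Mmp12 and Pdpn had most of their KO UMIs in the inflammatory state, of which DKO had 1 cell, whereas the 44.2% of Mmp13 there became 23.4% without 1 cell. Mmp8, not shown to be above the lymphocyte background, had 42 UMIs for KO against 2 for DKO, giving a log2 ratio of -1.80 (-5.20 to -0.16). The neutrophil transcript S100a8 was lower with it in the class, with 108 and 2 UMIs, and its part in the Mmp8 difference was not tested. In state 1, where Mmp8 was highest within the KO class at 12.3 CPM (8.02 to 18.0), it had 26 UMIs and DKO had 0. With DKO set to 3 counts as the floor, Mmp8 was 1.96-fold lower there, and the interval of its log2 ratio ended at -0.57. Mmp9, not shown to be above the lymphocyte background in this class, had 22 and 8 UMIs and a log2 ratio of 0.88 (-0.55 to 2.05).

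Without the inflammatory state 2 members, Mmp8 and Mmp13, were lower past the fold and 1, Timp1, was higher, against a background of 2.78% lower and 3.39% higher over 9556 genes. Mmp12 then had 187 CPM for KO against 126 CPM for DKO, giving a log2 ratio of -0.57 (-0.79 to -0.37). Pdpn had 6.69 and 4.50 CPM, giving a log2 ratio of -0.50 (-1.86 to 0.52). The differences of both genes were thus smaller without the state of which DKO had 1 cell. The Pdpn value rested on few cells, since without the cell with the most Pdpn UMIs in each library it was -1.59 (-4.12 to -0.15). With the 4 states of at least 20 cells in both libraries weighted by their share of KO UMIs, the log2 ratio was -0.04 for Mmp12, -1.13 for Mmp13 and -1.30 for Pdpn.

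Within states the genes moved apart. In state 0, Mmp12 was 304 CPM for KO against 363 CPM for DKO, giving a log2 ratio of 0.26 (0.02 to 0.48), and 0.06 (-0.19 to 0.30) without the cell with the most UMIs in each library. In state 2, Mmp12 was 193 CPM in KO and 44.9 CPM in DKO, giving a log2 ratio of -2.09 (-2.69 to -1.57), from 33 of 312 and 7 of 134 cells. The difference in state 2 was as large without the top cells, at -2.31 (-3.11 to -1.67), whereas in state 0 the interval then included 0. Mmp13 was lower in DKO in both, with log2 ratios of -0.83 (-1.86 to -0.03) in state 0 and -1.48 (-2.29 to -0.81) in state 2. Pdpn went both ways. In state 0 it had 42 KO UMIs and 0 DKO UMIs, which is 2.07-fold lower with DKO set to 3 counts as the floor. The interval of that log2 ratio ended at -0.69. In state 2 Pdpn had 3 KO and 8 DKO UMIs, with 5 of the 8 in 1 cell. The single DKO cell in the inflammatory state had 9 Mmp12, 2 Mmp14, 3 Mmp19 and 10 Thbs1 UMIs and no Arg1, Nos2 or Cxcl3.

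Mmp14, Mmp19 and Thbs1 were lower in DKO by less than the fold. Mmp14 was 98.1 CPM (91.6 to 105) for KO against 70.6 CPM (58.9 to 84.1) for DKO, giving a log2 ratio of -0.47 (-0.75 to -0.20), and 0.02 (-0.36 to 0.37) within state 0. Mmp19 was 187 CPM (178 to 196) and 145 CPM (128 to 163), giving a log2 ratio of -0.37 (-0.56 to -0.18). By state, Mmp19 was lower in state 0, with a log2 ratio of -0.41 (-0.71 to -0.12), and had intervals that included 0 in states 1 and 2, where its DKO levels were 102 and 142 CPM. Thbs1 was 2056 CPM (2026 to 2087) and 1697 CPM (1637 to 1758), giving a log2 ratio of -0.28 (-0.33 to -0.22). The narrow intervals of these genes follow from their counts and say nothing of the spread between mice.

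Summed over the class, both inhibitors were higher in DKO. Timp2 had 38.2 CPM (34.2 to 42.6) for KO against 58.3 CPM (47.6 to 70.7) for DKO, giving a log2 ratio of 0.61 (0.28 to 0.93), and was detected in 5.47% of 1427 KO and 10.2% of 293 DKO thinned cells (1.70% of 176 thinned DKO lymphocytes). State 2, where Timp2 was highest, made up 41.9% of DKO and 20.6% of KO cells of the class, and with the states weighted as in KO the log2 ratio was 0.14. Within state 2 it was 0.50 (0.05 to 0.93), and the part of the state shares in the difference was not tested. Timp1, not shown to be above the lymphocyte background in this class, had 4.82 CPM (3.48 to 6.52) and 11.8 CPM (7.29 to 18.0). Its log2 ratio was 1.30 (0.46 to 2.08). Of the 21 DKO UMIs of Timp1, 17 lay in 2 cells, and without the top cell of each library the log2 ratio was 0.68 (-0.43 to 1.60), below the fold. In state 2 alone Timp1 had 8 KO UMIs in 5 cells and 19 DKO UMIs in 4 cells, giving a log2 ratio of 2.40 (1.20 to 3.85). In state 0 neither inhibitor was higher in DKO. Timp2 had a log2 ratio of -0.16 (-0.92 to 0.47) there, and Timp1 had 9 KO and 0 DKO UMIs.

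**Figure D4:**
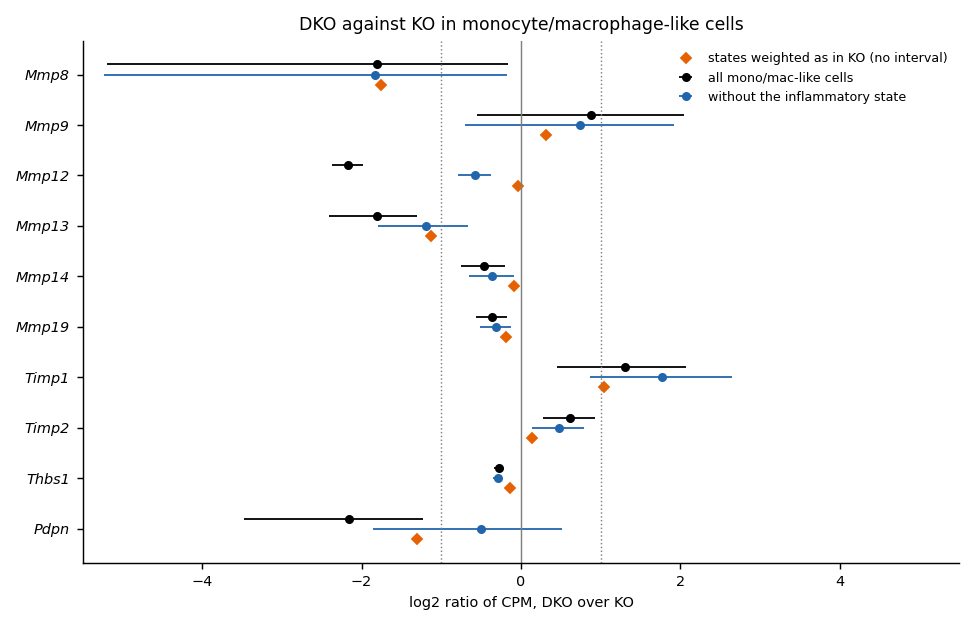
Log2 ratio of CPM, DKO over KO (x axis), for the 10 genes in all monocyte/macrophage-like cells (black) and without the inflammatory state (blue), with exact 95% intervals for counting error, and with states weighted as in KO (orange diamonds, no interval); dotted lines mark the fold of 1 in log2. Mmp12 goes from -2.17 to -0.57 and -0.04.

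In neutrophil-like cells, which were shallow (161 KO and 48 DKO cells), 4 of the 10 genes passed the minimum. Mmp9 had 372 CPM (306 to 448) for KO against 438 CPM (309 to 604) for DKO, giving a log2 ratio of 0.25 (-0.34 to 0.79), so no difference was detectable at this depth. Mmp8 had 70.4 CPM (43.6 to 108) and 154 CPM (82.0 to 263), giving a log2 ratio of 1.15 (0.01 to 2.20), which was the 1 call past the fold. Its 13 DKO UMIs came from 4 cells, and without the top cell of each library the log2 ratio was 0.88 (-0.59 to 2.15). Thbs1 had 1304 CPM and 1778 CPM, giving a log2 ratio of 0.45 (0.17 to 0.72), and Timp2 had 107 CPM in both. Over the 1977 genes tested, 11.7% were lower and 4.25% higher past the fold.

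The members were set beside 49 other matrix genes, of which 28 passed the minimum in the monocyte/macrophage-like class and 11 had no UMI. Past the fold, 3 were lower in DKO and 1 was higher, beside 3.9% lower and 3.98% higher over all genes tested. The median of the 28 log2 ratios was 0.00 against 0.10 over all genes tested. Mmp3, stromelysin 1 of the same chromosome 9 cluster, had 73 KO UMIs, 72 of them in the inflammatory state, and 0 in DKO. With DKO set to 3 counts as the floor, Mmp3 was 4.98-fold lower, and the interval of its log2 ratio ended at -1.98. Serpinb2, an inhibitor of plasminogen activators, had 191 and 9 UMIs, giving a log2 ratio of -2.05 (-3.27 to -1.16). Spp1, which encodes osteopontin, had 141 and 49.9 CPM, giving a log2 ratio of -1.49 (-1.82 to -1.19). Cd36, a scavenger receptor that binds thrombospondin, had 54.5 and 149 CPM, giving a log2 ratio of 1.45 (1.23 to 1.67). Without the inflammatory state 27 passed the minimum, of which 1 was lower (Serpinb2) and 3 were higher. Those 3 were Cd36, Fn1 and Ecm1, named here after their values were seen. Over all genes tested, 2.78% were then lower and 3.39% higher.

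Over the 10 groups of state and library with at least 20 cells, the genes most like each member by Pearson's r of log2(CPM + 10), among 6723 genes with at least 100 UMIs, were as follows. For Mmp12 they were Dcstamp (r = 0.95), Procr (0.94) and Tpi1 (0.94), and for Pdpn Bnip3 (0.98), F3 (0.96) and Agap1 (0.96). Mmp13 was nearest to Socs2 (0.97), Mmp14 to Basp1 (0.97), Mmp19 to Eif4e (0.99), Timp2 to Gna12 (0.995) and Thbs1 to Crtc3 (0.97). These points share libraries and differ in depth, and with 10 of them such values are a description.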

How the data were processed

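Per the labels and the study's methods, colon cells were sorted by CD45.2, CD11b, CD11c and CD64, a gate that by the methods should exclude lymphocytes and neutrophils. Libraries were made with a 3′ v3.1 kit and processed by the authors with Cell Ranger 6.0.1 and Seurat 4.3.0 on mm10, as the submitters' processing notes name them. The deposited values are raw UMI counts per gene and barcode, filtered to called cells and not normalized.

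Cells with 300 to 5000 detected genes and no more than 10% mitochondrial UMIs entered clustering in Seurat 5.3.0 (2000 variable genes without the members, the other matrix genes and Cers2, 30 components, 20 neighbours, resolution 0.3). Clusters took the name with the largest number of markers, at least 3. This rule was changed after the clusters were seen. Ranking by the share of markers would have named the inflammatory cluster pDC-like and left it out of the class. Scrublet (scanpy 1.11.5) marked 6 KO and 1 DKO barcodes as doublets and none were removed; as an alternative the top 5% of scores were. UMIs were summed per library and class, and log2 ratios had 0.5 counts added. Intervals (95%) were exact (Poisson, Clopper-Pearson and conditional). TMM factors came from edgeR 4.0.16. With 1 library per group no p-value was computed. The ratio and its interval were tested on simulated Poisson counts, the model that the interval assumes. That check cannot cover the uneven spread over cells or the spread between mice. The members and lists were chosen with earlier results of these data known. All 10 members are named, and of the other matrix genes up to 6 in each direction with the largest ratios past the fold.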

Additional observations from a re-analysis of the deposited data

Results flagged for a closer look

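Several ratios of DKO over KO pointed in opposite directions in different cells, each with an interval that left out 0. None of these differences was itself tested, since there was 1 library per genotype.

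Mmp12 was lower in DKO in state 2 (log2 ratio -2.09) and higher in state 0 (0.26), which are 2.34 apart, and higher in cDC2-like cells (0.90), which is 2.98 from state 2. The state 0 value included 0 once the top cells were left out. In cDC2-like cells it was 0.64 (0.23 to 1.05) without them. The DKO top cell there had 43 Mmp12 UMIs, 17335 UMIs in all and 8 C1qa UMIs.

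Mmp8 had 26 UMIs in KO and 0 in DKO classical monocyte-like cells, giving a log2 ratio of -0.97 with 3 counts as the floor for DKO and an interval that ended at -0.57. In neutrophil-like cells it was 1.15 (0.01 to 2.20), which is 2.12 from the value at the floor. That ratio rested on 13 DKO UMIs in 4 cells. Without the top cell of each library it was 0.88 (-0.59 to 2.15), an interval that includes 0.

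Thbs1 was higher in DKO neutrophil-like cells (0.45) and lower in state 1 (-0.18), state 2 (-0.33) and cDC2-like cells (-1.25), with gaps of 0.633, 0.784 and 1.70.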

How the results depend on the processing

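No paired analysis was possible because each genotype had 1 library. Of 120 log2 ratios of members under 12 alternatives, 108 stayed within the counting interval of the reported value and none of the called ratios changed direction. The count of 4 members lower in DKO became 2 without the inflammatory state and was 3 or 4 under the other alternatives. The 1 member higher in DKO, Timp1, was lost (0) when the top 5% of Scrublet scores were removed, with the stricter cell filter, with thinned cells and without the top cells, and the count became 2 with 2 counts added, when Mmp9 passed the fold; why was not tested. For the other matrix genes, leaving out the inflammatory state gave 1 lower and 3 higher, and with no minimum count 15 were higher, since genes with 0 or few UMIs then pass through the added counts. The Mmp12 log2 ratio ranged from -2.47 to -0.04 and that of Pdpn from -3.34 to -0.50. The share of KO Mmp12 UMIs in the inflammatory state was 69.5% to 72.7%, and that of Mmp13 dropped to 23.4% without 1 cell, an alternative chosen after seeing the data, as were the ratios within states without the top cells. The inflammatory state was found under every clustering tried, with 170 to 190 KO and 1 or 2 DKO cells. All of these used the same naming rule, which was not varied. Depth limits Mmp8, Mmp9 and Timp1, with 2 to 42 UMIs per library in the class. It also limits the DKO value of Pdpn, with 8 UMIs in 4 cells of the class, 5 of them in 1 cell.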
